A study of Homo sapiens with 2 samples.

Results

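The genes described here are 10 components of transforming growth factor beta (TGF-beta) signalling: SKI, SKIL, TGIF1, SMAD2, SMAD3, SMAD4, SMAD7, TGFBR1, TGFBR2 and THBS1. A gene was given an interval where the deposited peak list carried its NCBI gene number and the midpoint of the interval lay inside its RefSeq span. Of these 10 genes, 3 held an interval, SKI, SMAD3 and THBS1, with 6 of the 1406 distinct intervals of the list between them. The other 7 held none. The genes were chosen with the interval list in view, so their counts and heights are descriptions and were not tested.

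The assay was HITS-CLIP: ultraviolet light fixes a protein to the RNA it touches, an antibody pulls the protein down, and the attached RNA fragments are sequenced as tags. Both libraries, 2 biological replicates in 1 group, were made from MDA-231-LM2 cells, a human breast cancer line selected from MDA-MB-231 for growth in the lung. The antibody label, title and design text name SF3B1, whereas the extract protocol names SNRBP2, and SF3B1 is taken as the target here. There was no control antibody, input or second condition. The authors called peaks on the pooled tags, so no value has a replicate error, the depth of each library is unknown, and tags left by contact with SF3B1 cannot be told apart from tags of RNAs that are simply abundant. The height of a peak, in pooled tags at its top, is the authors' own value. The list had a median height of 7 tags, with quartiles of 6 and 11. SF3B1 itself held 1 interval of 9 tags. Of 5 genes typical of the MDA-MB-231 lineage, VIM, AXL and EGFR held an interval and CD44 and CAV1 did not. Of 5 luminal breast genes CDH1 held 1, and none of 3 leukocyte genes or the hepatocyte gene ALB did. Peaks give no transcript level, so these counts say nothing of the markers' levels.

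SF3B1 is part of the U2 small nuclear ribonucleoprotein, which recognises the branch site of introns. In TGF-beta signalling, the ligand brings the receptors TGFBR2 and TGFBR1 together, TGFBR1 phosphorylates SMAD2 and SMAD3, and these enter the nucleus with SMAD4 to regulate genes. SMAD7 inhibits the receptor, while SKI, SKIL (also called SnoN) and TGIF1 repress transcription at SMAD-bound genes. THBS1, the matrix glycoprotein thrombospondin 1, can release TGF-beta from its latent complex. In breast cancer the pathway is known both for restraining growth early and for promoting invasion and metastasis later.

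SKI, the proto-oncogene that binds SMAD2, SMAD3 and SMAD4 and recruits histone deacetylases, held the most intervals of the 10 genes. It spans 81.9 kb (chromosome 1, 2228319 to 2310213, hg38, as for all positions). Its 3 intervals reached 9 tags at 2254984 to 2255026, 6 tags at 2265220 to 2265258 and 6 tags at 2303292 to 2303332, all on the plus strand. They were not 1 cluster, because the midpoints lay 10.2 kb and 38.1 kb apart. The first 2 fell 26.7 and 36.9 kb into the gene, and the third lay 6.9 kb from its end. An interval was present in 517 of 7640 protein-coding genes of 20 to 100 kb (6.77%). At least 3 intervals were present in 49 of 19987 protein-coding genes (0.245%), and in 18 of the 7640 genes of that span (0.236%). Within those 49 genes SKI was among the lower ones by height: the tallest interval was above 9 tags in 40, equal in 5 including SKI, and below in 4. The median of the tallest intervals in the 49 genes was 14 tags.

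SMAD3, the receptor-activated SMAD that binds DNA directly, held 2 intervals in a span of 130 kb (chromosome 15, 67065602 to 67195169). They reached 7 tags at 67091741 to 67091785 and 8 tags at 67142463 to 67142505, on the plus strand, which is the strand of the gene in the RefSeq promoter table. The midpoints lay 26.2 and 76.9 kb from the start of the gene, 50.7 kb apart. Of 3351 protein-coding genes longer than 100 kb, 301 held an interval (8.98%) and 72 held at least 2 (2.15%), whereas at least 2 were present in 186 of all 19987 (0.931%). Of the 137 genes with exactly 2 intervals, 88 had a tallest interval above the 8 tags of SMAD3 and 34 had a lower one. SMAD2, the close relative of SMAD3 that is activated by the same receptor, held 0 intervals in a span of similar length (122 kb).

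THBS1 held 1 interval, the tallest of the 6. It reached 11 tags at chromosome 15, 39592530 to 39592572, on the plus strand, the strand of the gene. The gene spans 18.4 kb (39581079 to 39599466), and the midpoint lay 11.5 kb from its start and 6.92 kb from its end. An interval was present in 239 of 8996 protein-coding genes under 20 kb (2.66%). Of the 871 genes with a single interval, 134 had a taller one and 713 a lower one. Per length of gene, THBS1 held 5.44 intervals per 100 kb, SKI 3.66 and SMAD3 1.54. This order is that of decreasing count over span and rests on 1, 3 and 2 intervals.

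**Figure D1:**
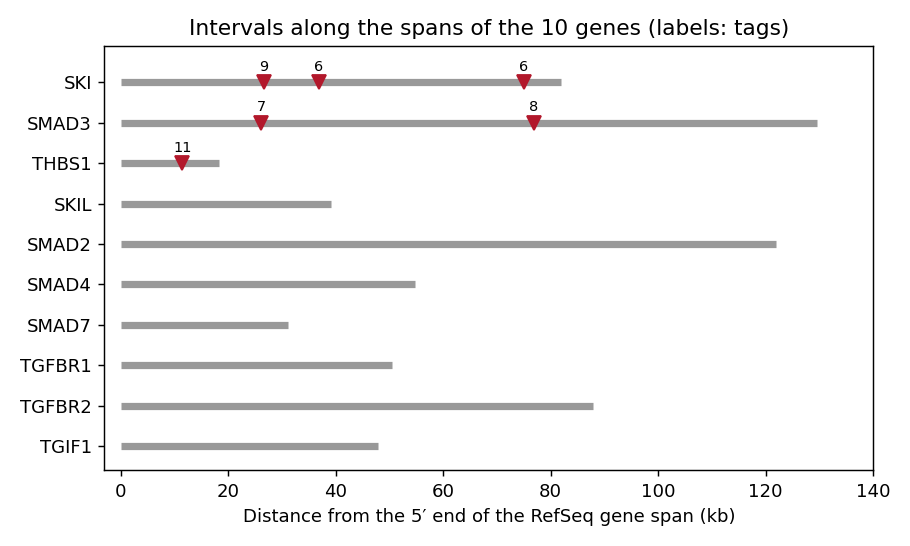
Position of each interval (triangles, with its height in tags) along the RefSeq span of the 10 genes (grey bars), in kb from the 5′ end of the gene. SKI has 3 separate intervals, SMAD3 has 2 and THBS1 has 1, and the spans of the other 7 genes are empty.

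No interval was listed for the remaining corepressors SKIL and TGIF1, for SMAD2, SMAD4 and SMAD7, or for the receptors TGFBR1 and TGFBR2. Their 7 spans were 31.1 to 122 kb long, all longer than that of THBS1, and 2 of them, SMAD2 and TGFBR2, were longer than that of SKI. The 7 spans also held 0 intervals on either strand under any other gene number. The list holds only peaks that the authors called significant, so 0 intervals does not show absence of tags. The lowest height in the list was 3 tags, but the threshold is not given. The lowest listed height differed with the expected height described below: it was 5 tags at 0.03 and 8 tags at 0.3 to 0.5. So 0 intervals does not show fewer than 3 tags either. The share of the 10 genes with an interval was 30.0% (exact Clopper-Pearson 95% interval 6.67 to 65.2), beside 1057 of 19987 protein-coding genes (5.29%). Nothing is read from that difference, because the genes were chosen on the list.

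The 6 intervals resembled the list in height and width. Their heights were 6, 6, 7, 8, 9 and 11 tags, with a median of 7.5 beside 7 for all 1406 intervals. Of the 6, 3 were above the median of the list, beside 46.4% of all 1406 intervals. Of the rest, 1 was equal to it and 2 were below. Counting error alone spans the whole order: the exact Poisson 95% interval was 5.49 to 19.7 tags for the 11 of THBS1 and 2.2 to 13.1 for the 6 of SKI. No neighbours in the order were separated. Such intervals cover counting error only, and whether each tag is an independent molecule is not known, although the deposited list is labelled as made from unique tags. In the whole list, 22.5% of intervals were taller than that of THBS1, 31.3% taller than the first of SKI, and 60.2% taller than the other two of SKI. The widths were 39 to 45 nt with a median of 43 nt, the same median as in the list.

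**Figure D2:**
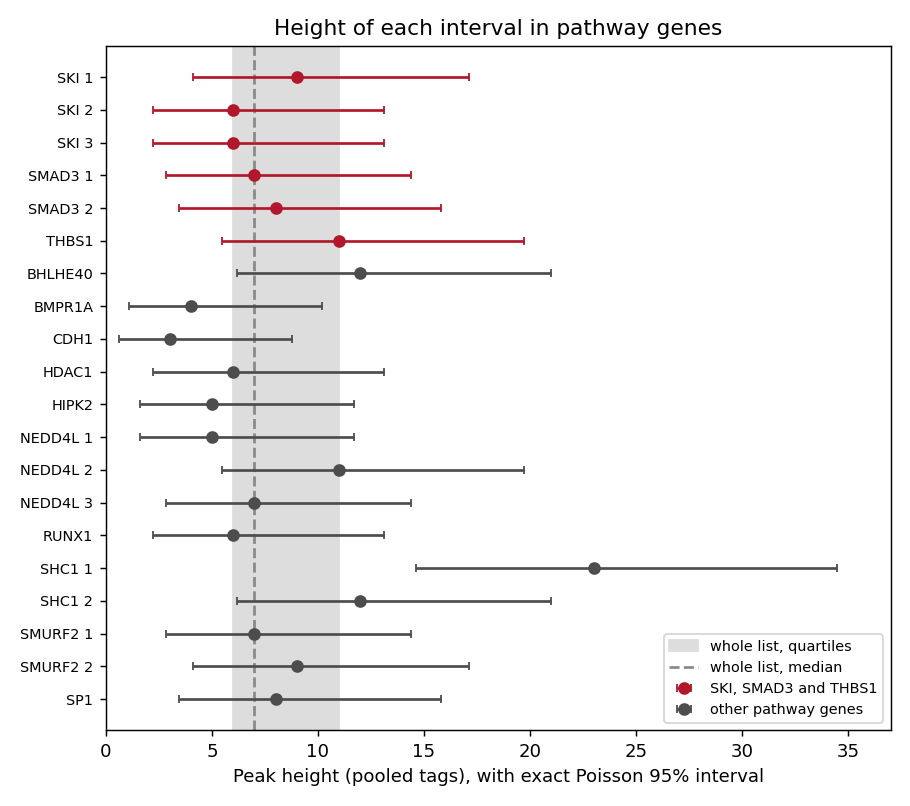
Height in pooled tags (horizontal axis) of each interval in SKI, SMAD3 and THBS1 (red) and in other genes of the pathway (dark grey), with exact Poisson 95% intervals; intervals of 1 gene are numbered by ascending position. The red points lie between 6 and 11 tags, within the quartiles of the whole list (shaded), and the tallest point, 23 tags, is in SHC1.

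The expected height listed for each gene set THBS1 apart from SKI and SMAD3. The deposited text gives an expected height of 0.39 tags for THBS1, 0.03 for SKI and 0.04 for SMAD3. No source used here says how it was computed. The median over the 1057 protein-coding genes with an interval was 0.04, and 56 of them (5.3%) had a higher value than THBS1. The interval of THBS1 was 28.2 times its expected height. The first interval of SKI was 300 times its expected height, between 257 and 360 given the rounding of 0.03. The other two of SKI were 200 times, and those of SMAD3 were 175 and 200 times. The median ratio over 1258 protein-coding intervals was 167, with quartiles of 81.8 and 333. The other 48 of 1306 intervals were left out, because their expected height was listed as 0 and gave no ratio. THBS1 lay below the lower quartile, and SKI and SMAD3 lay between the quartiles. The rounding of 0.03 leaves unsettled whether the first interval of SKI lay below the upper quartile. Listed intervals had at least 5 tags where 0.03 was expected and at least 8 where 0.3 to 0.5 was. The ratio is therefore tied to the expected height, and the place of THBS1 by ratio is not a separate result.

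Listed heights were also set beside those of genes with a like expected height. Where 0.03 was expected, 161 intervals had a median of 6 tags and a minimum of 5, and 24 were taller than the 9 of SKI. Where 0.04 was expected, 91 intervals had a median of 7 and a minimum of 5, and 31 were taller than the 8 of SMAD3. Where 0.3 to 0.5 was expected, 59 intervals in 33 genes had a median of 12 and a minimum of 8. Of these 59, 34 were taller than that of THBS1 and 20 were lower. THBS1 held the tallest interval of the 6 in tags but an interval below the median among genes with its expected height. In the deposited list the p-value was 1e-100 for the first interval of SKI, the lowest value listed and one given to 269 intervals. Not every interval of 9 tags with 0.03 listed as its expected height had that value: those of BSDC1 and GNAS had higher p-values. The value 1e-100 therefore does not rank this interval of SKI against the others. It was 0.000227 for the other two of SKI, 9.29e-06 and 5.04e-08 for those of SMAD3 and 3.52e-05 for THBS1. The highest p-value listed was 0.0499, so none of the 6 stood near that end.

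**Figure D3:**
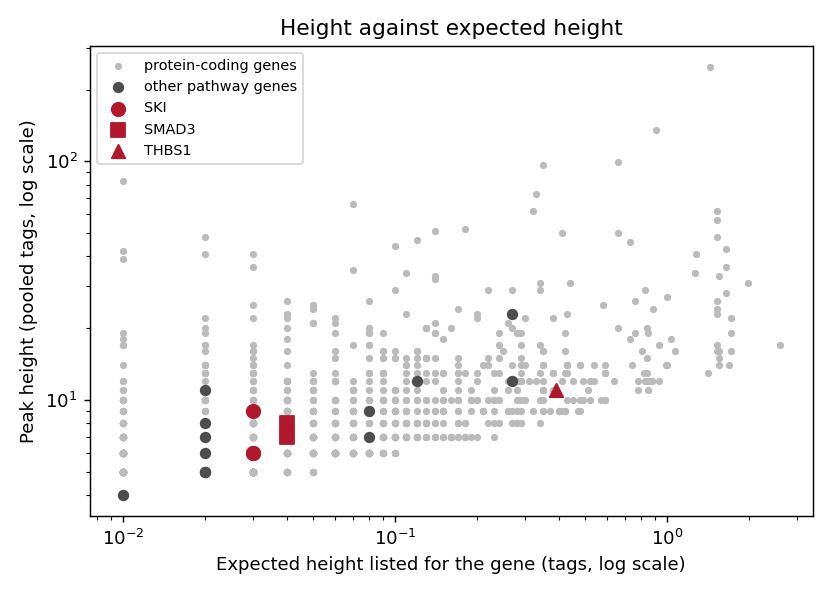
Peak height in pooled tags against the expected height listed for the gene, both on log scales, for intervals of protein-coding genes with an expected height above 0. SKI (0.03) and SMAD3 (0.04) lie close to the median expected height of 0.04, whereas THBS1 (0.39) lies far to the right, with 5.3% of genes beyond it.

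None of the 6 intervals shared its position with another RefSeq gene of any kind, small RNA genes and pseudogenes included. In kb, the interval nearest to the start of its gene was that of THBS1, at 11.5 kb, but this was 62.4% along its short span. As a percent of the span, the first interval of SMAD3 lay nearest to the start, at 20.2%. With no exon annotation or genome sequence used, whether an interval lay in an exon, in an intron or at a branch site was not analysed, and no sequence is printed for it.

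Beyond these genes, the pathway was described by 115 further genes grouped by role. An interval was present in 10 of them (8.70%, exact 95% interval 4.25 to 15.4), beside 5.29% of all protein-coding genes. For protein-coding genes in the same 3 classes of span, weighted as in this list, the share was 5.88%. The exact interval of the 115 genes includes both background values. The 14 intervals of these 10 genes had a median of 7 tags, equal to that of the list.

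Among ubiquitin ligases that limit the pathway, NEDD4L, which targets activated SMAD2 and SMAD3, held 3 intervals of 5, 11 and 7 tags, and SMURF2, which acts with SMAD7 on the receptor, held 2 of 7 and 9 tags. They were the only 2 of 15 regulators of receptors or SMADs with an interval (13.3%, exact 95% interval 1.66 to 40.5), beside 5.29% of all protein-coding genes. Both are among the 7 regulators longer than 100 kb, a span at which 8.98% of protein-coding genes held an interval. The intervals of NEDD4L all lay in the last part of its 357 kb span, 297, 320 and 339 kb from the start. SMURF2 resembled SMAD3 in span (120 kb) and in count, with midpoints 7.62 kb apart.

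Among partners of SMADs in transcription, 4 of 16 held 1 interval each: SP1 (8 tags), HDAC1 (6), RUNX1 (6) and HIPK2 (5). That share was 25% (exact 95% interval 7.27 to 52.4), beside 5.29% of all protein-coding genes. By span, 2 of the 7 partners of 20 to 100 kb held one, beside 6.77% of such protein-coding genes. Of the 5 partners over 100 kb, 2 held one, beside 8.98%. The role is 1 of 7 in a list drawn up with earlier results of these data known, and its share was not tested. HDAC1 is a histone deacetylase found in corepressor complexes with SKI, and HIPK2 is a kinase that binds SKI. HDAC1 had the same height and the same expected height, 0.03, as the lower intervals of SKI. Both values were common: 17.2% of all intervals had 6 tags, and 161 had an expected height of 0.03. Nothing is read from the match. The interval of RUNX1 also lay inside RUNX1-AS1, and that of HIPK2 inside LOC105375530, both long noncoding RNA genes.

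In the non-SMAD branch, SHC1, an adaptor that links the receptor to MAP kinase signalling, was the only 1 of 11 genes with an interval. It held 2, of 23 and 12 tags, in a span of 12.1 kb, and the first was the tallest in the pathway, with 5.55% of the list above it. Its Poisson interval, 14.6 to 34.5 tags, overlapped that of THBS1. Of 30 target genes, BHLHE40, a transcription factor gene, held 1 interval of 12 tags and CDH1, the gene of E-cadherin, 1 of 3 tags. Of 12 receptors or co-receptors, BMPR1A, a type I receptor for bone morphogenetic proteins, held 1 of 4 tags. The 3 tags of CDH1 lay at RNA5SP429, a pseudogene named for 5S rRNA, and the 4 tags of BMPR1A at RNU1-19P, a pseudogene named for U1 snRNA. Tags at such copies are uncertain in their source. The shares were 9.09% of the non-SMAD branch, 6.67% of target genes and 8.33% of receptors or co-receptors, beside 5.29% of all protein-coding genes. The 4 remaining SMAD genes (SMAD1, SMAD5, SMAD6 and SMAD9) and the 27 ligands, latency proteins and antagonists held 0 intervals, with upper limits of 60.2% and 12.8%. Both limits lie above 5.29%, so nothing is read from these empty roles. Without intervals that also lay in another RefSeq gene, an alternative chosen after seeing the data, 6 of the 115 genes held an interval beside 4.61% of protein-coding genes, and all 6 intervals of SKI, SMAD3 and THBS1 were retained.

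**Figure D4:**
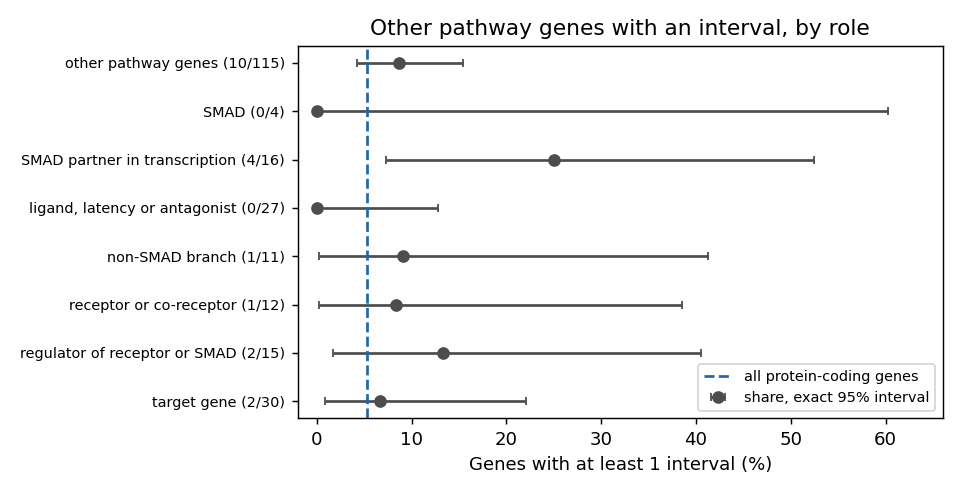
Percent of the 115 further pathway genes with at least 1 interval, in all and by role, with exact 95% intervals and counts in parentheses; the dashed line is the 5.29% of all protein-coding genes. The interval of the whole list reaches 4.25 to 15.4% and includes the line.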

How the data were processed

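The authors deposited 1 peak list on hg38, made from the tags of both libraries together. Per the submitters' processing notes, cutadapt 2.3 and BWA 0.7.17 were used; the peak caller, threshold and annotation are not given in the sources used here. As deposited, the signal column holds peak heights in tags without normalization, and equalled the height in the deposited text field in all 1587 rows. Rows that repeated a position on the same strand were counted 1 time. Gene numbers were matched to RefSeq GRCh38.p14 (1190 of 1191 matched). The background was protein-coding genes, without the Y chromosome and unplaced genes. Distances along a gene ran in the direction of the strand of its intervals; the strand of the gene itself was read from the RefSeq promoter table for genes listed there.

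The members and the lists, set by role, were chosen with earlier results of these data known. All 10 members and every further pathway gene with an interval were named. No test was run: the design has 1 pooled group. Intervals for heights (exact Poisson) and shares (Clopper-Pearson) are at 95%, cover counting error only and treat genes as independent. The assignment of intervals was checked on simulated data. Computation used pandas 2.3.3 with numpy 2.4.6 and scipy 1.17.1 under Python 3.11.15, and plots matplotlib 3.10.9.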

Additional observations from a re-analysis of the deposited data

How the results depend on the processing

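SKI, SMAD3 and THBS1 held an interval under each of the 7 alternatives run: every row counted, any overlap of 1 nt, gene numbers as listed, heights above the median, a listed p-value under 0.01, merging within 50 nt, and leaving out intervals inside another RefSeq gene. Counting every row, any overlap, gene numbers as listed and merging cannot remove a gene, so they do not test this. Only the limits on height, p-value and position inside another gene could have removed one. Among intervals above the median height, the 10 members kept 3 of 6 intervals, beside 46.4% of all intervals in the list. At that limit 5 of the 115 further pathway genes held one, beside 2.43% of all protein-coding genes. With a listed p-value under 0.01, 8 of the 115 held one, beside 4.52%. Without intervals inside another gene, 6 of the 115 held one, beside 4.61% of all protein-coding genes. The median height of the members' intervals was 7.5 tags wherever all 6 were kept, so that value was fixed by keeping them. Above the median height of the list it was 9 tags, but that limit cannot lower it. The tallest interval of each member, a further alternative, also gave 9. No paired analysis was possible because the list pools both replicates, and for the same reason no replicate could be left out. Heights of 6 to 11 tags limit every comparison between intervals.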
